A study of Mus musculus with 20 samples.

Results

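Angiogenin (ANG), RNase 4 (RNASE4) and the ribonuclease inhibitor (RNH1) were followed through a knockdown of HuR in mouse livers and in livers of mice repopulated with human hepatocytes. The 3 genes were found by symbol, ignoring case, among 60607 human genes listed for the humanized livers and 55335 mouse genes listed for the WT livers, so that each set holds 3 of 3. ANG was chosen by its TPM, which were higher with HuR KD than with LacZ in both species, and its own difference is therefore given as a description without a test. RNASE4 was added because it shares a promoter with ANG, and RNH1 because its product inhibits both enzymes.

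The humanized group came from TK-NOG mice, a highly immune-deficient strain in which a mouse albumin promoter drives a herpes simplex virus thymidine kinase in the liver. Ganciclovir (GCV, 25 mg/kg at 8 to 9 weeks of age) killed the cells that express the kinase, 1000000 human primary hepatocytes were transplanted through the spleen 1 week later, and mice with more than 0.5 mg/ml of human albumin in serum 8 to 12 weeks after transplantation were used. The livers are therefore chimeric, with mouse cells of other types beside any remaining mouse hepatocytes, and only human genes are listed for them. The WT group were male C57BL/6 mice, bought at 8 weeks of age and acclimatized for 10 to 14 days. Every mouse received 2000000000 pfu of adenovirus by vein, carrying an shRNA against HuR (human HuR in 4 humanized mice, mouse HuR in 6 WT mice) or the LacZ control (4 humanized and 6 WT mice). All 20 livers were taken on day 7 after a 4 h fast, and total RNA was sequenced from strand-specific libraries. The number of hepatocyte donors behind the 8 humanized livers is not given in the sources used here.

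Angiogenin and RNase 4 are small secreted ribonucleases of the RNase A family, and the liver is a main source of angiogenin in plasma. Angiogenin enters target cells after binding at the cell surface, and under stress it cuts tRNAs in the anticodon loop. The ribonuclease inhibitor is a cytosolic leucine-rich repeat protein that binds RNase A family enzymes very tightly and keeps them inactive inside cells. HuR, the product of ELAVL1, is an RNA-binding protein that binds AU-rich stretches of mRNA, often in introns and 3′ UTRs.

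In the mouse genome (GRCm38, GENCODE M21) Ang (ENSMUSG00000072115.11) and Rnase4 (ENSMUSG00000021876.15) lie on the plus strand of chromosome 14, from 51091150 to 51102009 and from 51091077 to 51106151. Each has 2 annotated transcripts of 2 exons, in which a noncoding first exon is spliced to a second exon that holds the whole coding sequence. The coding sequence of Ang takes 435 bases (51101404 to 51101838) and that of Rnase4 takes 444 bases (51104821 to 51105264). The genes share their first exons and none of their coding sequence. The shared stretch is 219 exonic bases, which is 18.2% of the 1202 exonic bases of Ang and 13.4% of the 1637 of Rnase4. Rnh1 (ENSMUSG00000038650.15) lies elsewhere (chromosome 7, bases 141160326 to 141172857, minus strand) with 5 transcripts and 2594 exonic bases.

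**Figure D1:**
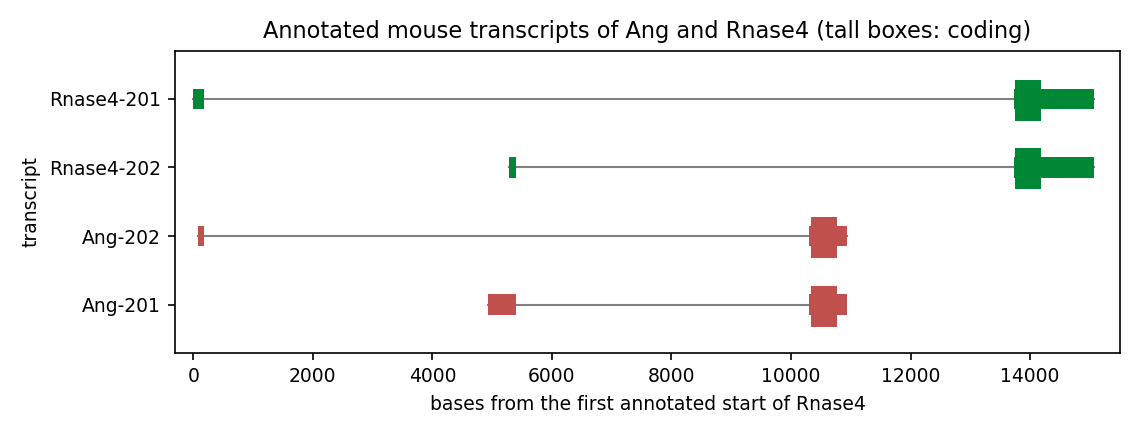
Annotated mouse transcripts of Ang (red) and Rnase4 (green), with the distance in bases from the first annotated start of Rnase4 on the x axis and 1 row per transcript; boxes are exons and taller boxes coding sequence. The first exons of the genes overlap at both starts, over 219 bases in all, and the coding exons lie apart.

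RefSeq (GRCm38.p6) gives Ang 1 promoter window of 250 bases before to 50 bases after the start, and gives Rnase4 2 windows, 1 of which is identical to that of Ang (chr14:51090827-51091126, plus strand). A CCAAT box (CCAAT, searched on both strands) lies 55 bases before the RefSeq start that both genes share. Those 30 bases of the shared promoter, chr14:51091010-51091039, are shown because both genes carry them, with the match in capitals.
Ang and Rnase4 promoter: ttgcaggcagacCCAATggggaggggcatc

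The shared window held 2 matches to CCAAT in all, a motif present in 37.4% of 32817 promoter windows, and 1 match to the GC box GGGCGG, present in 35.6% of them. The second CCAAT and the GC box overlap by 1 base and lie after the RefSeq start, in the first exon of an Rnase4 transcript and before every annotated first exon of Ang in GENCODE M21. TATAAA (13.6% of windows) and the HNF1 motif GTTAAT (7.1%) were not found in it on either strand. None of these letters shows binding of a factor. The AU-rich pentamer ATTTA was looked for on the sense strand of the longest annotated 3′ UTR of each gene, because HuR binds AU-rich RNA. The UTRs of Ang (168 bases) and Rnh1 (152 bases) held 0 copies and that of Rnase4 (884 bases) held 2, against at least 1 copy in 69.2% of 11297 tested mouse genes with an annotated 3′ UTR, whose median length was 1134 bases. Of the UTRs no longer than that of Ang, 84.0% held none. The Rnase4 copies begin at bases 328 and 816 of the UTR and are shown with 8 bases on either side, the pentamer in capitals.
Rnase4 3′ UTR, first copy: gccactgtATTTAgaagcttt
Rnase4 3′ UTR, second copy: taaaattcATTTAtccttctc

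The deposited values are TPM, the reads on a gene per base of its exons, scaled to sum to 1000000 over all listed genes of a liver. They were compared with limma on log2(TPM + 1), so that fold changes of low genes are understated, and a gene is called at an unadjusted p under 0.05, with the Benjamini-Hochberg adjusted p beside it. Reads on genes, recovered from the TPM, ranged from 2670469 to 20302454 in the humanized livers and from 1423985 to 44668272 in the WT livers. WT LacZ replicate 2 was the shallowest of all 20. Humanized HuR KD replicate 4 and Humanized LacZ replicate 2 stood apart with the deepest libraries of their set and 49.1% of TPM in mitochondrial rRNA, against 27.2% to 36.0% in the other 6. The targeted gene was lower with HuR KD in every liver of both sets, with ELAVL1 at 3.46 ± 0.763 TPM against 5.67 ± 0.623 (SD, n = 4 and 4) and Elavl1 at 4.91 ± 0.694 against 9.50 ± 0.789 TPM (SD, n = 6 and 6). WT HuR KD replicate 6 stood apart from its group in several of the genes below. Of the hepatocyte markers tested, 0 of 6 human and 0 of 5 mouse genes were called by limma at an unadjusted p. Among markers of other cells, the human livers had 1 of 2 stellate (RELN) and 1 of 3 cholangiocyte genes (EPCAM) called, both lower, beside 11.5% of all human genes called, and too little of the endothelial, lymphocyte, granulocyte and erythroid genes to test. The WT livers had 1 of 7 endothelial (Stab2, higher), 2 of 7 stellate (Lrat and Lum, lower), 1 of 5 erythroid (Hba-a1, higher), 0 of 1 cholangiocyte and 0 of 3 lymphocyte genes called, beside 16% of all mouse genes and the Kupffer cell genes described with Ang. None of these markers passed the adjusted threshold (limma, adjusted p 0.126 to 0.424). EPCAM lost its call under all 3 other scalings and stayed called in 2 of 8 fits with 1 liver left out (without HuR KD replicate 4 or LacZ replicate 1). Stab2 lost its call under 2 of 3 scalings and stayed called in 4 of 12 such fits (without HuR KD replicate 2 or 5 or LacZ replicate 3 or 6). Lrat lost its call without HuR KD replicate 1, 5 or 6 or LacZ replicate 1 or 6, and Hba-a1 without HuR KD replicate 3, 4 or 6 or LacZ replicate 1 or 2.

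ANG (ENSG00000214274.9) was about 2-fold higher in humanized livers with HuR KD, and each KD liver stood above each control. It was at 434, 398, 512 and 428 TPM in HuR KD replicates 1 to 4 and at 150, 341, 189 and 183 TPM in LacZ replicates 1 to 4. The groups did not overlap, although LacZ replicate 2 lay far above the other 3 controls and close to the lowest KD liver. Over all human genes tested, 2.13% were higher without overlap in this comparison, which the choice of ANG had used. The means were 443 ± 48.6 and 216 ± 85.2 TPM (SD, n = 4 and 4), a ratio of 2.05, and the log2 fold change was 1.10 (SE 0.24). Among protein-coding genes of a liver ANG ranked 57 to 74 with HuR KD and 83 to 191 with LacZ, and the gene was read deeply, with 426 to 6781 reads. Without the 2 livers of high mitochondrial rRNA, means were 448 ± 58.2 and 174 ± 20.9 TPM (SD, n = 3 and 3) and the log2 fold change was 1.36.

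Mouse Ang was higher by a smaller step, with 1 KD liver inside the range of the controls. HuR KD livers 1 to 6 were at 598, 549, 585, 571, 615 and 492 TPM, and LacZ livers 1 to 6 at 312, 355, 429, 492, 540 and 357 TPM. HuR KD replicate 6 was level with LacZ replicate 4 and below LacZ replicate 5, whereas the other 5 KD livers stood above every control. The means were 568 ± 43.5 and 414 ± 88.5 TPM (SD, n = 6 and 6), a ratio of 1.37, with a log2 fold change of 0.48 (SE 0.13). All 6 KD livers lay above the median of the controls, 393 TPM. The human log2 fold change exceeded the mouse one by 0.62 (SE 0.25), which is not tested because the rule used both. Among all mouse genes 1.25% were higher and 1.23% lower without overlap. The log2 fold change was 0.44 without the shallow LacZ replicate 2 and 0.52 without HuR KD replicate 6.

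Kupffer cell markers moved in the opposite direction in the same WT livers. Of 7 tested, 4 were lower with HuR KD (Cd5l, Clec4f, Cd68 and Adgre1), 0 were higher and the median log2 fold change was -0.40, against 0.03 over all mouse genes, of which 16% were called and 6.94% called lower. The adjusted p of those called ran from 0.061 to 0.257 (limma), and Csf1r, Vsig4 and Marco did not pass the threshold. Their summed level was 292 to 507 TPM with HuR KD and 414 to 560 TPM with LacZ, and none of the 7 was at 0. Adgre1 lost its call without HuR KD replicate 5 or 6 or without LacZ replicate 1, 2 or 4. In bulk tissue, fewer cells of a type and less RNA per cell cannot be told apart, and the part of these cells in the Ang difference was not tested. The human Kupffer cell markers summed to at most 1.24 TPM in any humanized liver.

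RNASE4 (ENSG00000258818.4) was low in the humanized livers and fell to 49.5% of the control mean. HuR KD replicates 1 to 4 were at 1.49, 1.35, 2.10 and 2.30 TPM and LacZ replicates 1 to 4 at 3.94, 4.86, 3.26 and 2.56 TPM. The lowest control lay just above the highest KD liver, so the groups did not overlap, as for 5.03% of human genes in this direction. The means were 1.81 ± 0.464 and 3.66 ± 0.981 TPM (SD, n = 4 and 4), and the log2 fold change was -0.72 (SE 0.21), lower in 4 of 4 KD livers than in any control. The gene was called by limma (p = 0.0073, adjusted p = 0.227), and the two-sided exact permutation test gave p = 0.029, the smallest that 70 groupings allow. Of 12738 human genes tested, 11.5% were called, 3.6% higher and 7.87% lower, and 0.212% passed the adjusted threshold, which RNASE4 did not.

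Few reads stand behind those levels. HuR KD replicates 1 to 4 had 5, 6, 21 and 55 reads on RNASE4 and LacZ replicates 1 to 4 had 33, 115, 26 and 9. The exact 95% Poisson interval of the lowest, which covers counting error only, ran from 0.495 to 2.94 TPM in HuR KD replicate 2, and that of LacZ replicate 4 from 1.17 to 4.86 TPM. These intervals overlap, whereas that of LacZ replicate 2 (4.01 to 5.84 TPM) lay above those of all 4 KD livers. Without the 2 livers of high mitochondrial rRNA the log2 fold change was -0.68 (limma, still called, adjusted p = 0.219). How reads over several genes were assigned is not given in the sources used here, and neither is the use of strand in counting. Exons shared with ANG were measured in the mouse annotation only, so how far human RNASE4 shares reads with ANG was not tested and its level is uncertain.

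**Figure D2:**
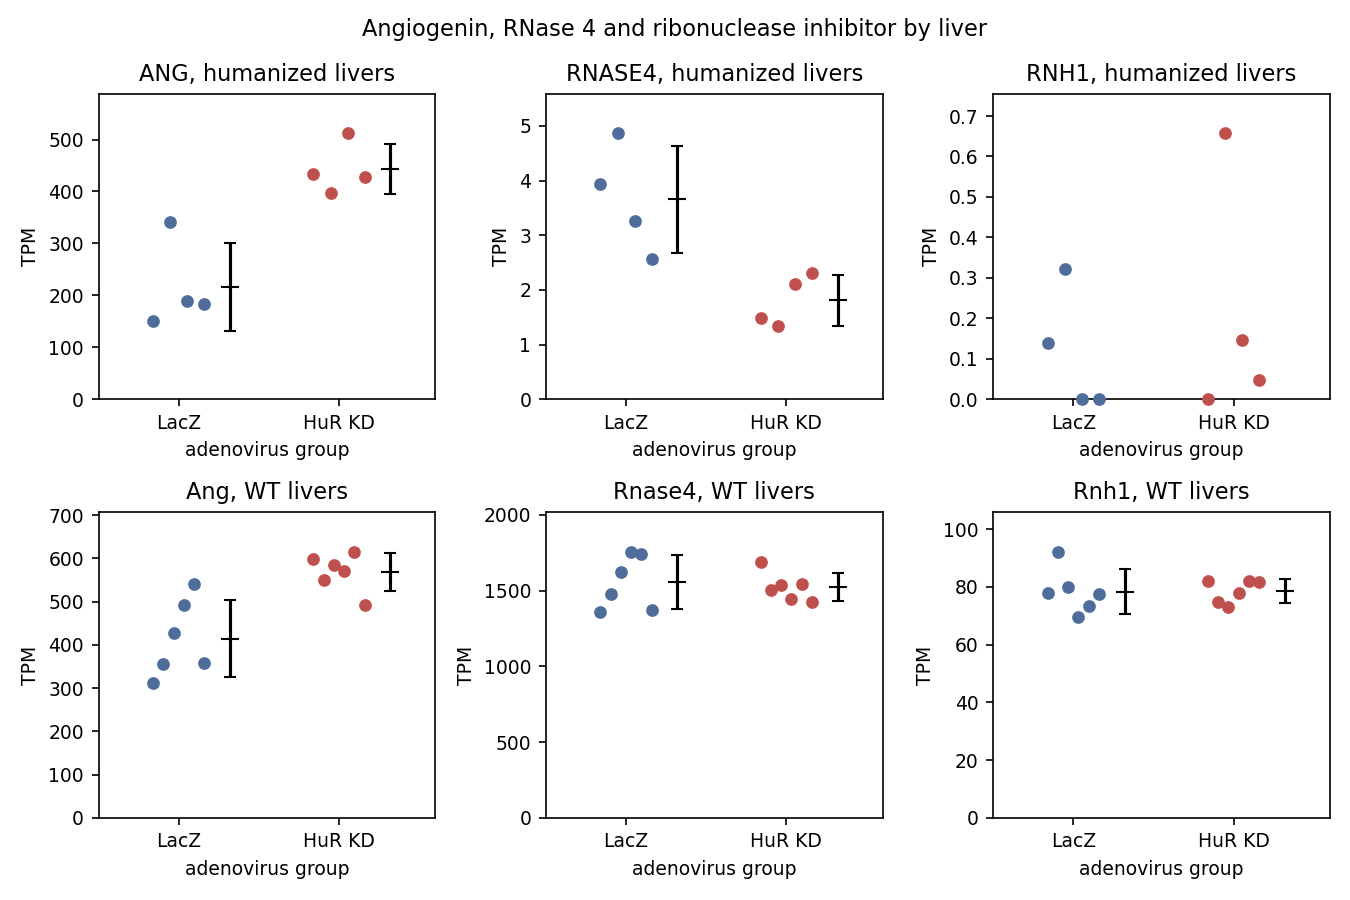
TPM of the 3 genes in each liver (y axis, linear from 0) by adenovirus group (x axis), for humanized livers above (4 and 4) and WT livers below (6 and 6); points are livers and black bars the mean ± SD, left out for human RNH1, which is listed at 0 in 3 livers. ANG of HuR KD livers lies above all controls in the humanized set and RNASE4 below them, while Rnase4 and Rnh1 overlap in the WT set.

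Mouse Rnase4 was abundant and overlapped fully between the groups. Its level was 1689, 1504, 1538, 1444, 1543 and 1424 TPM in HuR KD livers 1 to 6 and 1358, 1478, 1623, 1755, 1742 and 1374 TPM in LacZ livers 1 to 6. Every KD liver lay within the range of the controls. The means were 1524 ± 94.2 and 1555 ± 177 TPM (SD, n = 6 and 6), with a log2 fold change of -0.02 (SE 0.08; limma p = 0.781, adjusted p = 0.923) and an exact permutation p of 0.760 over 924 groupings. The 95% interval of the difference ran from 86.8% to 111% of the control on the TPM + 1 scale. Of 15090 mouse genes tested, 16% were called and 0.888% passed the adjusted threshold.

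The response of RNASE4 to the knockdown was therefore compared between the species in a joint fit over 8202 symbol pairs. The human fold change was lower than the mouse one by 0.70 on the log2 scale (SE 0.18; limma, adjusted p = 0.029), and 19.7% of pairs passed the unadjusted and 5.01% the adjusted threshold. Under other scalings of the same values the adjusted p was 0.066 to 0.068, with an unadjusted p of at most 0.0052. The comparison sets a gene read 5 to 115 times per liver beside one read 1427 to 50789 times. The joint fit gave each gene a common variance over both sets. For this gene the pooled SD within groups of log2(TPM + 1) was 0.27 in the humanized and 0.13 in the WT livers. The SE of the difference was thus below that of the human fold change alone (0.21), and its p is likely too small. The species also differed in strain, shRNA, transplantation and immune state of the host, and these cannot be told apart from species.

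Within a liver the ratio of ANG to RNASE4 separated the groups in both species, a difference that the choice of ANG favours and that carries no test. In the humanized livers ANG was 292, 295, 243 and 186 times RNASE4 with HuR KD and 38.1, 70.1, 58.0 and 71.3 times with LacZ. In the WT livers the ratio of Ang to Rnase4 was 0.346 to 0.399 with HuR KD (median 0.373) and 0.230 to 0.310 with LacZ (median 0.262). The lowest KD ratio stood above the highest control ratio in each set. How many ratios of other genes separate the groups was not counted, and mouse Ang alone overlapped between them. The listed values also ranked the genes differently. Rnase4 was 3.82 ± 0.404 times as high as Ang in WT controls (SD, n = 6) and RNASE4 was 0.0179 ± 0.0057 times as high as ANG in humanized controls (SD, n = 4), both per length. RNASE4 had 9 to 115 reads in a humanized control and its level is uncertain, because the assignment of reads is not given, so its rank is uncertain too. TPM of the sets were scaled over different gene lists, so levels are not compared between the sets.

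**Figure D3:**
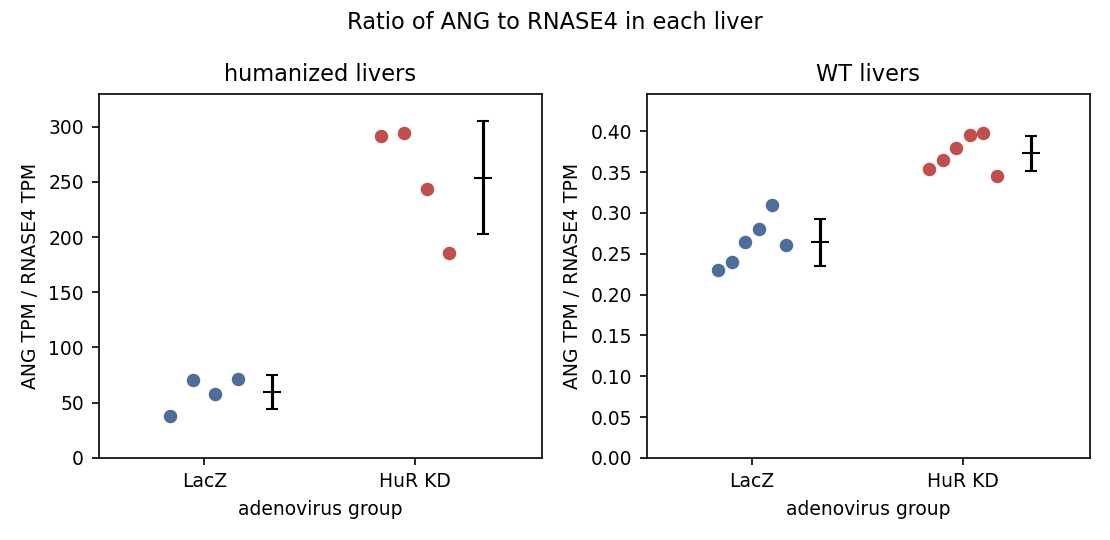
Ratio of ANG to RNASE4 TPM in each liver (y axis, linear from 0, a different scale in each panel) by adenovirus group (x axis), for humanized (4 and 4) and WT livers (6 and 6); points are livers and black bars the mean ± SD. Every HuR KD liver lies above every LacZ liver in both panels, at 186 to 295 against 38.1 to 71.3 and at 0.346 to 0.399 against 0.230 to 0.310. ANG was chosen for its higher TPM with HuR KD, which favours this separation.

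RNH1, the inhibitor, was close to undetected among the human genes. RNH1 (ENSG00000023191.17) was listed at 0, 0.657, 0.146 and 0.0489 TPM in HuR KD replicates 1 to 4 and at 0.139, 0.321, 0 and 0 TPM in LacZ replicates 1 to 4, from at most 26 reads. Taking 3 reads as the limit that a count of 0 allows, for counting error only, the 0 values allowed up to 0.261 TPM in HuR KD replicate 1 and up to 0.110 and 0.249 TPM in LacZ replicates 3 and 4, so no difference was detectable from so few reads. The deep HuR KD replicate 4 also had only 4 reads on RNH1. The gene did not pass the filter of a mean of 1 TPM and was not tested. Of 1501 protein-coding symbol pairs with a mouse mean of at least 50 TPM, 121 (8.06%) had a human mean under 1 TPM, as RNH1 did. How reads over several genes, and strand, were handled is not given, so the human level is uncertain. What sets this level was not tested.

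Mouse Rnh1 was well measured and did not pass the threshold. HuR KD livers 1 to 6 were at 82.2, 74.7, 73.0, 78.0, 82.1 and 81.6 TPM and LacZ livers 1 to 6 at 77.8, 92.2, 80.0, 69.4, 73.4 and 77.5 TPM. All 6 KD values lay inside the range of the controls, whose highest value came from the shallow LacZ replicate 2 with 141 reads. The means were 78.6 ± 4.04 and 78.4 ± 7.73 TPM (SD, n = 6 and 6), with a log2 fold change of 0.01 (SE 0.07; limma p = 0.907, adjusted p = 0.968) and an exact permutation p of 0.911. The 95% interval of the difference ran from 90.8% to 111% of the control on the TPM + 1 scale. The sum of Ang and Rnase4 was 26.7 ± 1.93 times Rnh1 with HuR KD and 25.5 ± 5.21 times with LacZ (SD, n = 6 and 6), so that the groups overlapped.

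Livers of a group that were high in Ang were also high in Rnase4. After the group mean was subtracted from each log2(TPM + 1), Pearson's r of Ang and Rnase4 was 0.90 over 12 WT livers, the third highest of Ang with 9540 genes, whose median r was -0.08. It was 0.87 to 0.94 with any 1 liver left out. Rnh1 did not follow them, at r = -0.48 with Ang and -0.34 with Rnase4. In the humanized livers r of ANG and RNASE4 was 0.56 over 8 livers and rested on LacZ replicate 2, without which it was -0.004. The points of a set share the library depth and the scaling of the whole liver, and the mouse genes share exons.

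**Figure D4:**
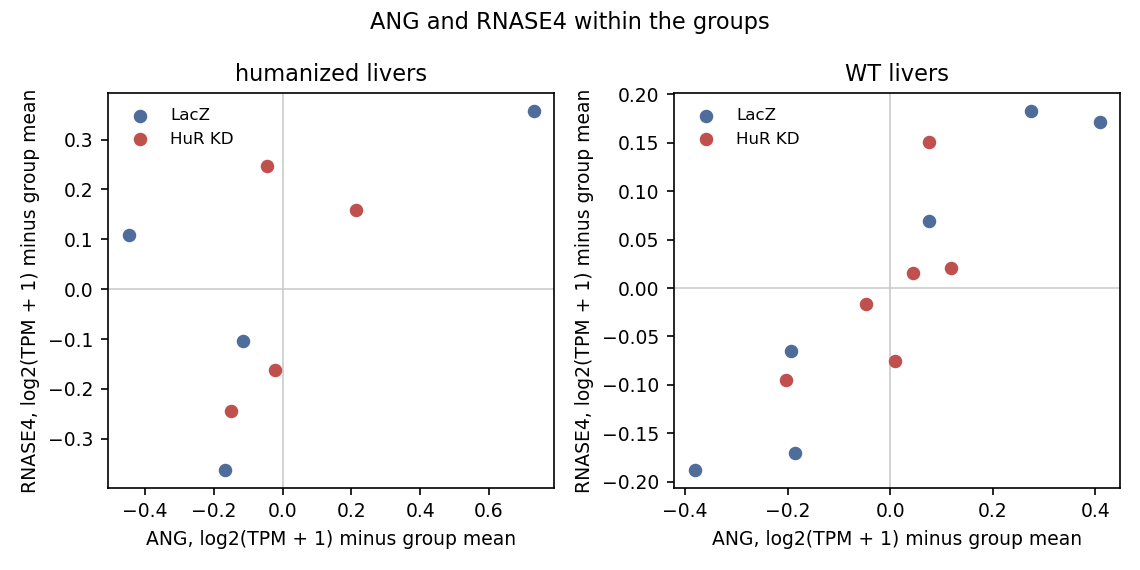
Log2(TPM + 1) of RNASE4 (y axis) against that of ANG (x axis), each minus its group mean, in 8 humanized livers (left) and 12 WT livers (right); points are livers, coloured by group. The WT livers lie along a rising line (r = 0.90), while the humanized pattern (r = 0.56) depends on LacZ replicate 2 at the upper right.

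The genes whose pattern within groups was most like that of ANG, by the lower of its r values in the 2 sets among 4741 pairs, were ITIH3 (0.81 in humanized and 0.79 in WT livers), ETNK2 (0.84 and 0.77) and CPT1A (0.75 and 0.81). They encode a hepatocyte-secreted inter-alpha-trypsin inhibitor heavy chain, an ethanolamine kinase and the carnitine palmitoyltransferase of mitochondrial fatty acid import. Most like RNASE4 were LRG1 (0.80 and 0.78), a secreted leucine-rich glycoprotein, CPN2 (0.78 and 0.93), a subunit of plasma carboxypeptidase N, and RETREG1 (0.73 and 0.74), a receptor for autophagy of the endoplasmic reticulum. Over the humanized livers these r values were lowest without LacZ replicate 2, at 0.75 for ITIH3, 0.43 for ETNK2, 0.23 for CPT1A, 0.68 for LRG1, 0.66 for CPN2 and 0.62 for RETREG1. They are the highest of 4741 pairs over 8 and 12 livers, and those of RNASE4 rest on its 5 to 115 reads in a humanized liver, under the mean of 5 TPM asked of the other genes. RNH1, listed at 0 in 3 humanized livers, was given no such list.

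Hardly any other gene of the RNase A family was read. None of 11 other human members reached a mean of 1 TPM, and 5 were listed at 0 in every liver, with RNASE2 the highest at up to a mean of 0.760 TPM in LacZ. Among the 18 listed mouse members, 7 were at 0 in every liver, and the Ang paralogs Ang2, Ang4, Ang5 and Ang6 were at or near 0 throughout. Only Ear2, an eosinophil-associated ribonuclease, was tested, and it was lower with HuR KD at 11.4 ± 2.00 against 16.6 ± 5.22 TPM (SD, n = 6 and 6; log2 fold change -0.48, SE 0.18, limma, adjusted p = 0.204). Of the Kupffer cell markers described above, 4 of 7 were lower in the same livers. The neutrophil markers S100a8 and S100a9 were not called by limma, and the eosinophil markers Epx (listed at 0 in every liver) and Prg2 were too low to test. The part of those cells in the Ear2 difference was not tested.

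Genes that neighbour ANG and RNASE4 on the chromosome showed no common direction. In the humanized livers 12 of 29 listed neighbours were tested, with a median log2 fold change of 0.02 against -0.05 over all human genes, and 0 were higher and 2 lower, beside 3.6% and 7.87% of all human genes. These were APEX1, the base excision repair endonuclease (38.7 ± 3.57 against 51.7 ± 6.72 TPM, SD, n = 4 and 4; limma, adjusted p = 0.305), and TEP1, a telomerase-associated protein (-0.43 on the log2 scale, limma, adjusted p = 0.418). TEP1 lost its call under all 3 other scalings and kept it in 2 of 8 fits with 1 liver left out (without LacZ replicate 2 or 3). In the WT livers 12 of 24 were tested, with a median of 0.01, and 3 were higher and 0 lower, beside 9.09% and 6.94% of all mouse genes. Rpph1, the RNA of ribonuclease P, was at 800 ± 214 against 567 ± 88.7 TPM (SD, n = 6 and 6; log2 fold change 0.47, limma, adjusted p = 0.158), Parp2 rose by 0.21 and Osgep by 0.19 on the log2 scale, and the call of Osgep was lost under 2 of 3 other scalings and kept in 4 of 12 fits with 1 liver left out (without HuR KD replicate 1 or 5 or LacZ replicate 3 or 6). Human RPPH1 was listed at 0 in every liver. Mouse Apex1 was not called (log2 fold change 0.02, SE 0.19), and the difference between the species was -0.43 (SE 0.25, limma, adjusted p = 0.374). Without HuR KD replicate 6, which stood apart, Apex1 was at 0.22 (SE 0.06, limma, adjusted p = 0.067). The species difference was then -0.63 (SE 0.13, limma, adjusted p = 0.0072). Ndrg2, the most abundant neighbour, was at 813 ± 93.2 against 799 ± 47.0 TPM in the WT livers (SD, n = 6 and 6; log2 fold change 0.02, limma, adjusted p = 0.934), or 776 TPM without HuR KD replicate 6, with a log2 fold change of -0.04.

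Of the surface proteins that angiogenin binds (PLXNB2, EGFR and SDC4), PLXNB2 was called in the humanized livers and 0 of 3 in the WT livers. Over all genes 11.5% were called in the humanized and 16% in the WT livers, 3.6% and 9.09% higher, so such counts of 3 genes tell little. PLXNB2, a plexin described as an angiogenin receptor, was at 41.0 ± 7.92 against 28.5 ± 4.01 TPM in the humanized livers (SD, n = 4 and 4; log2 fold change 0.50, SE 0.17, limma, adjusted p = 0.303), and 3 of 4 KD livers lay above every control. Mouse Plxnb2 was at 71.7 against 69.4 TPM (log2 fold change 0.03, SE 0.09), and the difference between the species was 0.47 (SE 0.18, limma, adjusted p = 0.145). Without HuR KD replicate 6 the mouse KD mean was 66.5 TPM, the log2 fold change -0.06 (SE 0.04) and the difference 0.56 (SE 0.15, limma, adjusted p = 0.032). The syndecan SDC4 was the most abundant of the 3 in both sets, with log2 fold changes of 0.07 (SE 0.38) and -0.03 (SE 0.08).

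Genes of tRNA modification and tRNA fragments concern the RNA class that angiogenin cuts. Their median log2 fold change was below 0 in the human and above 0 in the mouse livers. The same held for all genes (-0.05 and 0.03), and no test compared the lists. In the humanized livers 10 of 11 were tested, with a median of -0.13, and 0 were higher and 2 lower: PUS7, a pseudouridine synthase (-0.57, SE 0.16, limma, adjusted p = 0.194), and SSB, the La protein (-0.46, SE 0.20, limma, adjusted p = 0.411). In the WT livers 11 of 11 were tested, with a median of 0.15, and 3 were higher and 0 lower. Mettl1, a tRNA guanosine methyltransferase, rose by 0.60 (SE 0.24, limma, adjusted p = 0.246), Alkbh3, a demethylase, by 0.22 and Nsun2, a tRNA cytosine methyltransferase, by 0.15. Ybx1, which binds tRNA fragments, was the most abundant of the list in both species, with log2 fold changes of -0.20 (SE 0.21) in the human and 0.06 (SE 0.06) in the mouse livers. The log2 fold change of Mettl1 was 0.34 without the shallow LacZ replicate 2. Human METTL1 was at -0.30 (SE 0.19), and the difference between the species was -0.90 (SE 0.32, limma, adjusted p = 0.118). Without that liver the difference was -0.64 (SE 0.17, limma, adjusted p = 0.038). SSB lost its call without HuR KD replicate 1 or 4 or without LacZ replicate 1, 3 or 4, and Alkbh3 without HuR KD replicate 4 or 5 or LacZ replicate 6. The share of these genes called, 2 of 10 and 3 of 11, stands beside 11.5% and 16% of all genes. By direction, 3.6% of all human genes were called higher and 7.87% lower, and 9.09% and 6.94% of all mouse genes. Under the 3 other scalings the human median of the list was -0.07 to -0.05 and the mouse median 0.14 to 0.17.

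Ribonucleases outside the RNase A family were called in both directions in each set, with 7 of 9 WT calls higher. In the humanized livers 23 of 30 listed were tested with a median of 0.002, and 1 was higher (DICER1, 0.64, SE 0.19, limma, adjusted p = 0.245) and 1 lower (the nuclear 5′ exonuclease XRN2, -0.44, limma, adjusted p = 0.380, a call lost under 2 of 3 other scalings). Of all human genes 3.6% were called higher and 7.87% lower. In the WT livers 27 of 31 were tested with a median of 0.07, and 7 were higher and 2 lower, beside 9.09% higher and 6.94% lower among all mouse genes. Those higher were Endog, a mitochondrial endonuclease (59.4 ± 15.2 against 43.1 ± 3.73 TPM, SD, n = 6 and 6; 0.43, limma, adjusted p = 0.121), Dis3 (0.39) and Exosc10 (0.31) of the nuclear exosome, Dicer1 (0.28), Pop1 (0.24), a subunit of ribonucleases P and MRP, Rnaseh2a (0.20) and Elac2 (0.19), which trims the 3′ end of tRNA precursors. The decapping enzyme Dcp2 fell by 0.24 and the oligoribonuclease Rexo2 by 0.15 on the log2 scale, the call of Rexo2 being lost under 1 of 3 other scalings. With 1 liver left out XRN2 stayed called in 2 of 8 fits (without HuR KD replicate 4 or LacZ replicate 2) and Rexo2 in 4 of 12, and Pop1 lost its call without HuR KD replicate 1, 2 or 4. Without WT HuR KD replicate 6 the KD mean of Endog was 53.2 ± 2.03 TPM (SD, n = 5) and the log2 fold change 0.30 (limma, adjusted p = 0.033). Without the shallow WT LacZ replicate 2 the log2 fold change was 0.20 for Dicer1 and 0.30 for Dis3. Dicer1 was thus higher in both species, with a difference between them of 0.35 (SE 0.20, limma, adjusted p = 0.334). EXOSC10 differed between them (-0.51, SE 0.13, limma, adjusted p = 0.026), with a human log2 fold change of -0.19 (SE 0.13). The most abundant enzyme of this list in both species, Xrn2 or XRN2, was at 59.7 against 57.5 TPM in the WT livers (0.06, SE 0.09).

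Of the liver transcription factors and CTCF, FOXA1 was lower in the humanized livers, where 7 of 8 were tested with a median of -0.08. No other of the 7 was called, and 11.5% of all human genes were. FOXA1, a pioneer factor of hepatocytes, was at 5.89 ± 1.52 against 11.6 ± 1.88 TPM (SD, n = 4 and 4; -0.88, SE 0.19, limma, adjusted p = 0.104), without overlap, as for 5.03% of human genes in this direction. Mouse Foxa1 was at 8.80 against 8.81 TPM, and the difference between the species was -0.90 (SE 0.24, limma, adjusted p = 0.034). The mouse control mean rested on the shallow LacZ replicate 2, without which it was 7.82 TPM, the mouse log2 fold change 0.14 (SE 0.12) and the difference -1.02 (limma, adjusted p = 0.0072). In the WT livers 8 of 8 were tested with a median of 0.01, and Cebpb was lower, at 134 ± 30.8 against 192 ± 34.5 TPM (SD, n = 6 and 6; -0.53, SE 0.16, limma, adjusted p = 0.134). No other of the 8 was called, and 16% of all mouse genes were. The most abundant factors were CEBPA in the humanized (0.20, SE 0.26) and Hnf4a in the WT livers (0.05, SE 0.08), and neither passed the threshold.

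**Figure D5:**
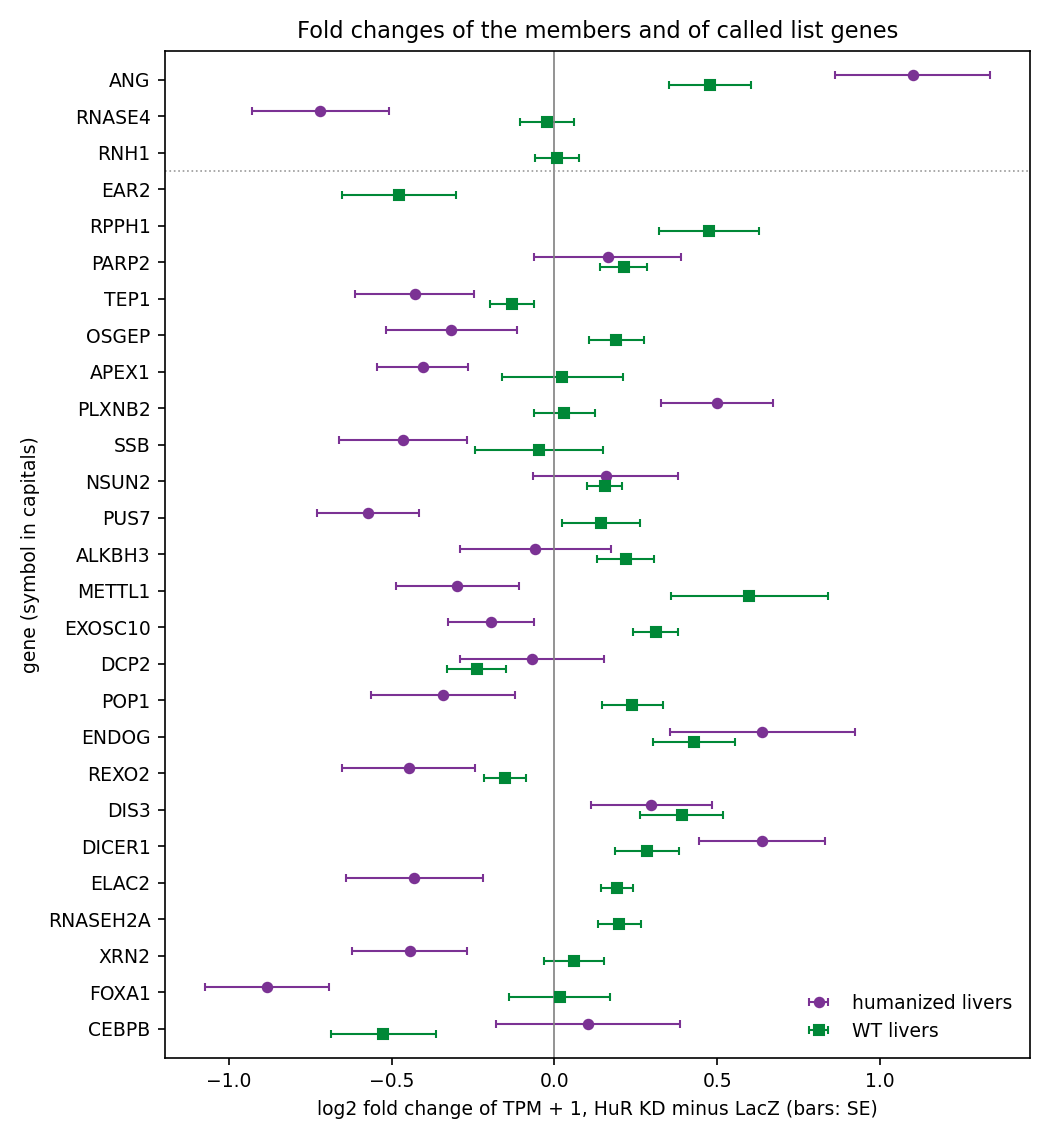
Log2 fold change of TPM + 1, HuR KD minus LacZ (x axis; bars are the SE), of the 3 genes above the dotted line and, below it, of every gene of the lists other than cell markers called in either set, in humanized (purple circles, 4 and 4 livers) and WT livers (green squares, 6 and 6); ANG is drawn as a description and genes not tested in a set have no point there. ANG lies to the right in both species (1.10 and 0.48) while RNASE4 lies to the left in the human (-0.72) and at 0 in the mouse livers (-0.02).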

How the data were processed

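The authors trimmed reads, aligned them with HISAT2 (humanized livers to a joint human and mouse index), counted them on genes with featureCounts and deposited TPM. The submitters' processing notes name GRCh38 and mm10. How reads over several genes, and strand, were handled is not given in the sources used here.

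Genes whose TPM averaged 1 or more were tested on log2(TPM + 1) by limma 3.58.1 (R 4.3.3, eBayes with trend), each set apart, and jointly for the species difference. The joint fit gave each gene a common variance over both sets, so its p is likely too small for genes that vary more in the humanized livers. Exact permutation tests over 70 or 924 groupings can give no p under 0.029 or 0.0022. Whole reads (tolerance 0.02) were worked back from the TPM steps in Python 3.11.15. The fits were tested on simulated reads in which 200 genes were shifted by 1.5 on the log2 scale. At an unadjusted p under 0.05 limma called 99.5% of these in the humanized and 98.0% in the WT design. It also called 6.74% and 4.09% of the genes that were not shifted. The simulated reads had the same spread beyond counting error for every gene, and the shift exceeded the fold changes of ANG and RNASE4. How often smaller changes are called was therefore not tested. Members and gene lists were chosen with earlier results of these data known. Named genes are the members, list genes called in either set, the most abundant gene of each list, and the 3 pairs most correlated with ANG or RNASE4, among pairs with a mean TPM of at least 5 in both sets. Alternatives covered a pseudocount of 0.1, other filters (none, or 5 TPM), 3 other scalings (median of ratios, quantile, protein-coding total), eBayes with no trend, the replicate block and each liver left out. Voom on the recovered reads, and leaving out livers that stand apart for list counts, single genes or likeness, or by mitochondrial rRNA, were chosen after seeing the data. Sequences came from RefSeq and GENCODE M21, whereas the authors counted on M23. Human sequence was not used here.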

Additional observations from a re-analysis of the deposited data

Results flagged for a closer look

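The HuR KD response of RNASE4 was lower in the humanized than in the WT livers by -0.695 on the log2 scale, by the interaction term of the joint limma fit (adjusted p = 0.029). The same term marked FOXA1 (-0.899, adjusted p = 0.034), PUS7 (-0.714, adjusted p = 0.030) and EXOSC10 (-0.506, adjusted p = 0.026). With a common variance over both sets, these p are likely too small for genes that vary more in the humanized livers. Under the 3 other scalings the adjusted p of RNASE4 in this fit was 0.066 to 0.068. Those of FOXA1, PUS7 and EXOSC10 under other scalings are not given here. Livers standing apart from their group were looked for among the 3 members and the named list genes, in 120 groups of 4 or 6 livers, as a gap to the nearest liver over the range of the group above Dixon's 95% critical value, which chance alone gives in about 5% of groups. This marked 12 groups, none of them of ANG, RNASE4 or RNH1. In the humanized livers it marked DICER1 in LacZ replicate 4 (12.6 TPM against 8.597 to 9.08, gap over range 0.880). Of the WT livers, HuR KD replicate 6 stood apart for Apex1 (19.1 TPM against 42.5 to 48.5, 0.798), Endog (90.3 against 50.9 to 56.5, 0.859), Ndrg2 (997 against 740 to 814, 0.714), Plxnb2 (97.4 against 64.2 to 70.8, 0.802) and Ssb (30.9 against 64.8 to 81.6, 0.668). The shallow LacZ replicate 2 stood apart for Dicer1 (10.02 TPM against 14.04 to 15.3, 0.765), Dis3 (3.94 against 5.90 to 6.998, 0.640), Foxa1 (13.8 against 6.78 to 8.87, 0.701) and Mettl1 (2.33 against 7.64 to 10.8, 0.629). LacZ replicate 1 stood apart for Dcp2 (11.4 TPM against 8.04 to 9.29, 0.62505, just above the critical value for 6 livers) and LacZ replicate 3 for Pop1 (7.92 against 7.09 to 7.19, 0.880).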

How the results depend on the processing

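ANG kept its direction under all 18 alternatives in the humanized livers (log2 fold change 0.95 to 1.34 with 1 liver left out) and all 21 in the WT livers (0.40 to 0.56). RNASE4 in the humanized livers stayed called under all 17 that gave a value (-0.84 to -0.60 with 1 liver left out, adjusted p 0.197 to 0.572 over all). Under a mean TPM of at least 5 it was not tested, and human RNH1 did not pass the filter and has no alternatives here. The species difference of RNASE4 kept its sign and its unadjusted call under all 28 (-0.82 to -0.58 with 1 liver left out), while its adjusted p ranged from 0.012 to 0.096. Fold changes near 0 turned sign: mouse Rnase4 ran from -0.0611 to 0.0129 with 1 liver left out, and mouse Rnh1 from -0.0253 to 0.0554, being -0.0066 with median-of-ratios factors and -0.0041 with quantile normalization. The correlation of ANG and RNASE4 in the humanized livers ran from -0.0037 (without LacZ replicate 2) to 0.8191. Same-numbered livers did not deviate together (r from -0.25 to 0.21, each liver pair best with its own number in 1 of 4 and 2 of 6), which gave no sign of a pairing. So few pairs cannot exclude one, and the main fits used none. With the replicate number as a block, log2 fold changes were 1.10 and 0.48 for ANG, -0.72 and -0.02 for RNASE4 and 0.01 for mouse Rnh1, the species difference had an adjusted p of 0.096, and 1401 human and 2242 mouse genes were called, against 1461 and 2418. Human calls fell to 931 with a mean TPM of at least 5, which tests fewer genes, and were 1098 to 1958 with 1 liver left out (1911 to 2856 in the mouse). Of human calls 31.4% were higher, against 47.3% to 47.5% under the 3 other scalings. The tRNA list had 5 mouse calls in place of 3 without HuR KD replicate 6, and the other ribonucleases 4 human calls in place of 2 without LacZ replicate 2. Few reads (5 to 115 on RNASE4 and 0 to 26 on RNH1 per humanized liver) limit the precision of both, also in the deepest libraries.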
